A study of Mus musculus with 6 samples.

Results

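Lysosomes break down proteins, lipids and sugars delivered by endocytosis and autophagy. Their lumen is acidified by the V-ATPase, a rotary proton pump in which the cytosolic V1 sector hydrolyses ATP and the membrane V0 sector carries protons. Cathepsins are the proteases that work in this acid lumen, and the LAMP proteins line the lysosomal membrane. Lysosomal activity is also known to bear on the quiescence of haematopoietic stem cells, and the lysosomal surface is where mTORC1 is recruited by amino acids.

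The genes described here are the 45 protein-coding genes of the table that encode cathepsins, V-ATPase subunits, V-ATPase accessory proteins or LAMP proteins, chosen by symbol (*Cts* with a single letter, *Atp6v0*, *Atp6v1*, *Atp6ap* and *Lamp* with a digit) from 36976 genes, of which 22380 are protein-coding. They comprise 17 cathepsins, 9 V0 genes, 13 V1 genes, 3 accessory genes and 3 *Lamp* genes. *Ctsg*, a serine protease of neutrophil granules, was left out by that choice. *Tcirg1*, which encodes the a3 form of the V0 a subunit, is not covered by the symbols and is given only beside its paralogs.

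RNA-Seq was carried out on long-term (LT) CML stem cells, sorted as CD150+CD48-CD135- LSK cells from bone marrow, in 3 *Gdpd3*+/+ libraries (replicates 1, 2 and 3) and 3 *Gdpd3*-/- libraries (replicates 5, 6 and 7). All mice were C57BL/6 and carried *SCL-tTA* and *TRE-BCR-ABL1*, so that the SCL promoter drives the transactivator and BCR-ABL1 is switched on when doxycycline is withdrawn, and cells were taken 5 weeks after induction. The *Gdpd3*-/- mice lack 5 bp of the coding sequence of *Gdpd3*, a lysophospholipase D gene, and come from 1 edited strain. The RNA came from 22 male and 12 female *Gdpd3*+/+ mice and from 5 male and 5 female *Gdpd3*-/- mice, and how the mice were divided among the libraries is not given in the sources used here. P-values therefore measure the spread between these libraries, which may be partly technical.

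Values are FPKM, fragments scaled to gene length and library size, so that levels can be compared between genes. *Gdpd3*, the targeted gene, stood at 7.30, 3.29 and 2.95 FPKM in *Gdpd3*+/+ and at 0.11, 0.0129 and 0.681 FPKM in *Gdpd3*-/-. All 3 *Gdpd3*-/- libraries lay below all 3 *Gdpd3*+/+ libraries, with a log2 fold change of -4.00 (SE 0.77, limma adjusted p = 0.0588).

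The libraries of the 2 genotypes differed in more than genotype. Read counts recovered from the FPKM values gave 49753146 to 62762437 reads in *Gdpd3*+/+ and 21334716 to 36421439 reads in *Gdpd3*-/-. Pearson correlations of log2 values were 0.973 to 0.979 within *Gdpd3*+/+ and 0.808 to 0.865 within *Gdpd3*-/-. All 10 skeletal muscle markers lay above, where 23.5% of all genes tested did, and 0 of the 10 were called by limma. Their summed level was 738 to 1110 FPKM in *Gdpd3*+/+ against 9585, 13844 and 1812 FPKM in *Gdpd3*-/- replicates 5, 6 and 7. The 7 neutrophil markers summed to 23283 to 27216 FPKM in *Gdpd3*+/+ and 6247 to 13042 FPKM in *Gdpd3*-/-. Of these 7, 3 were called lower, where 0.616% of all genes tested were. The summed markers of eosinophils or basophils (2516 to 3174 against 508 to 1843 FPKM), of plasma or B cells (2105 to 2724 against 1006 to 1832 FPKM) and of T or NK cells (386 to 461 against 163 to 319 FPKM) did not overlap either. In each list some markers went the other way. These were *Mcpt8* and *Prss34* of 6 (log2 fold changes 0.50 and 0.30) and *Cd79b* of 7 (0.41). In the T or NK list they were *Gzma* and *Ncr1* of 7 (3.84 and 0.27). *Nkg7* held most of the T or NK sum (382 to 458 against 149 to 313 FPKM). *Gzma*, at 0.150, 0.560 and 0.330 FPKM against 10.6, 4.88 and 3.81 FPKM, was called higher (limma adjusted p = 0.0321). *Flt3*, which encodes the CD135 that the gate excludes, stood at 9.80 to 11 FPKM in *Gdpd3*+/+ and 36.8 to 46.5 FPKM in *Gdpd3*-/- (adjusted p = 0.00562), and *Cd48*, also excluded by the gate, at 39.8, 41.2 and 44.8 FPKM against 51.6, 54 and 92.2 FPKM (adjusted p = 0.188). Of 6 stem cell markers, *Slamf1*, *Kit* and *Ly6a* of the gate and *Mecom*, *Procr* and *Hlf*, 0 were called by limma, and *Hlf* alone had an unadjusted p under 0.05. The *Gdpd3*+/+ columns carry an extra code in their header whose meaning is not given, and it cannot be told apart from genotype. The part of these differences in the results below was not tested. Values given without a library show only how far a result rests on that library. In bulk RNA, fewer cells of a type and less RNA per cell cannot be told apart.

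Most of the 45 genes were well expressed in LT-CML stem cells. Of the 45, 32 had a mean of at least 1 FPKM, and in *Gdpd3*+/+ these 32 had a median rank at the 94.6th percentile of all genes. For all genes with a mean of at least 1 FPKM the median rank was at the 79.6th percentile. The summed level of the 45 genes was 1830 ± 21.0 FPKM (SD, n = 3) in *Gdpd3*+/+ and 1844 ± 27 FPKM (SD, n = 3) in *Gdpd3*-/-, and the 2 ranges overlapped (exact two-sided permutation p = 0.5). Over the tested genes the sum was wholly below in *Gdpd3*-/- under TMM scaling, at a ratio of 0.870, and under quantile normalization, at 0.897. Among the 40 genes that passed a mean of 0.05 FPKM and were tested, 0 were called higher and 0 lower by limma at an adjusted p under 0.05, where 1.09% of all genes tested were called higher and 0.616% lower. At an unadjusted p under 0.05 there were 12 of the 40 (30%, 8 higher and 4 lower), against 22.2% of the 24689 genes tested. A limma-voom fit to the recovered read counts, chosen after the data were seen, called 0 higher and 2 lower, *Atp6ap2* and *Lamp2*, where 2.73% of all genes were called higher and 0.94% lower. Calls depended on the libraries used: without *Gdpd3*-/- replicate 7, 5 were called higher and 3 lower, where 9.83% and 4.36% of all genes were, and without replicate 6, 0 and 1 (*Atp6ap2*), where 1.19% and 0.751% were. With replicate 7 as the only *Gdpd3*-/- library, 2 were called higher and 2 lower (8.42% and 1.77% of all genes), and under TMM scaling 0 and 1 (*Lamp2*; 0.478% and 1.02% of all genes). The median log2 fold change was 0.10 over the 40 genes and 0.24 over all genes tested.

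**Figure D1:**
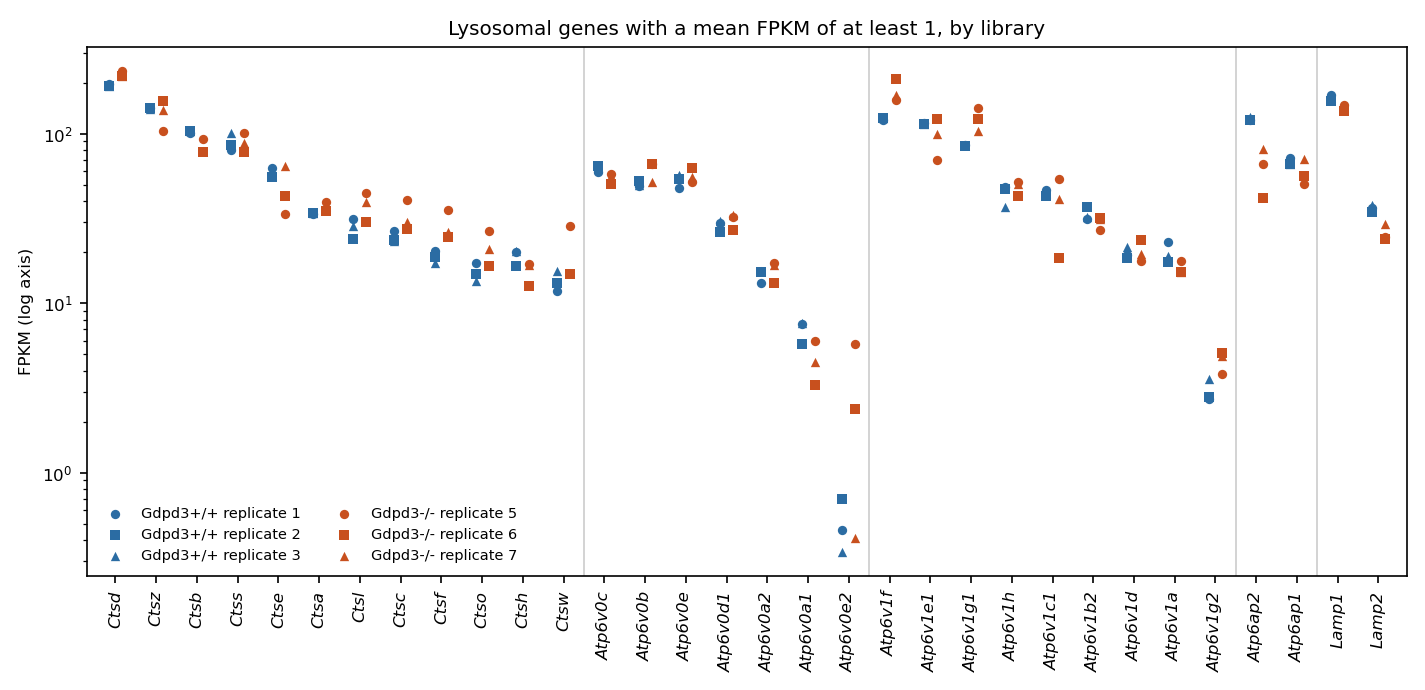
FPKM on a log axis of the 32 genes with a mean of at least 1 FPKM, with 1 point per library (blue, Gdpd3+/+; orange, Gdpd3-/-) and grey lines between cathepsins, V0, V1, accessory and Lamp genes. Levels run from under 1 FPKM for Atp6v0e2 to over 200 FPKM for Ctsd, and the Gdpd3-/- points spread more widely than the Gdpd3+/+ points in 29 of the 32 genes.

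The *Gdpd3*-/- libraries varied more among themselves. Among the 32 genes, the SD of log2 values had a median of 0.109 in *Gdpd3*+/+ and 0.214 in *Gdpd3*-/-, and it was larger in *Gdpd3*-/- for 29 of them. Over all genes with a mean of at least 1 FPKM the medians were 0.121 and 0.341. By the log2 fold change, taken between group means of log2(FPKM + 0.1), 27 of the 32 (84.4%) differed by less than 1.5-fold. Of all genes with a mean of at least 1 FPKM, 71.8% did. The 32 genes had a higher median percentile in *Gdpd3*+/+ than those genes (94.6 against 79.6), and the sets were not matched for level.

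Counted by overlap, 8 of the 40 genes (20%) had all *Gdpd3*-/- libraries above all *Gdpd3*+/+ libraries, where 23.5% of all genes tested did, and 5 (12.5%) had all of them below, where 8.27% did. An exact two-sided permutation test of 3 libraries against 3 cannot go below p = 0.1, and each of these 13 genes reached that value. The 8 include *Atp6v0a4*, 1 of 4 genes that passed the filter only through *Gdpd3*-/- (with *Ctsr*, *Ctsj* and *Atp6ap1l*), and without it 7 lay above. Among the 32 genes with a mean of at least 1 FPKM, a limit set after the values were seen, 7 lay above and 5 below, against 28.2% and 10.2% of genes at that level. The genes above were *Ctsd*, *Ctsa*, *Ctsc*, *Ctsf*, *Atp6v1f*, *Atp6v1g1* and *Atp6v1g2*, and those below were *Ctsb*, *Atp6v0c*, *Atp6ap2*, *Lamp1* and *Lamp2*. These counts depend on how the libraries are scaled: under TMM scaling, which matches libraries on the bulk of their genes, 4 of the 40 (10%) lay above and 14 (35%) below, where 14.5% and 15.5% of all genes tested did, and under quantile normalization 4 (10%) and 13 (32.5%), where 13.6% and 15.5% did.

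**Figure D2:**
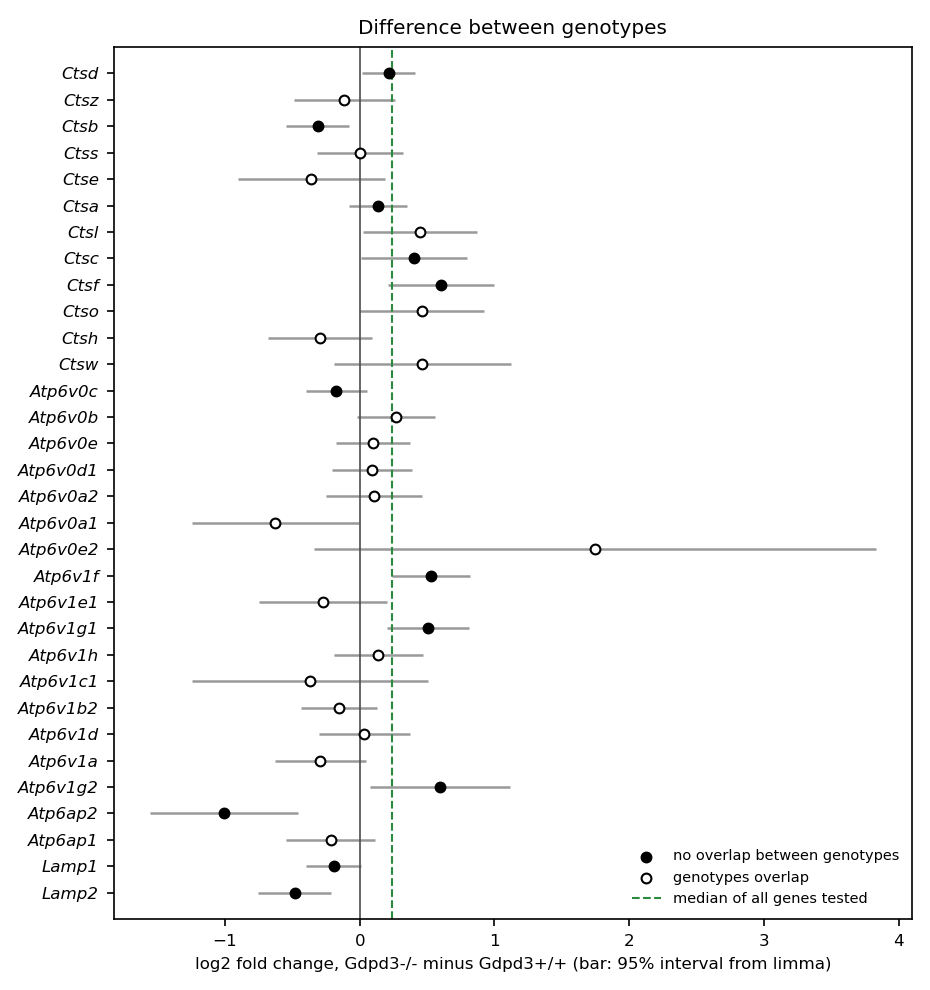
Log2 fold change (Gdpd3-/- minus Gdpd3+/+, with log2 of FPKM + 0.1) of the 32 genes with a mean of at least 1 FPKM; bars are 95% intervals from limma, filled points mark genes whose genotypes do not overlap, and the dashed green line is the median of all genes tested. Atp6ap2 at -1.01 is the lowest, and Atp6v0e2 at 1.75 has the widest interval.

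Cathepsins. Of the 17 genes, 12 had a mean of at least 1 FPKM and 15 were tested. The aspartic protease *Ctsd* was the highest, at 197, 190 and 191 FPKM in *Gdpd3*+/+ and 234, 218 and 219 FPKM in *Gdpd3*-/-. The genotypes did not overlap, and the log2 fold change was 0.21 (SE 0.08, limma adjusted p = 0.195), and 0.00 under TMM scaling. *Ctsz*, a carboxypeptidase, came next, at 141, 142 and 140 FPKM against 103, 156 and 138 FPKM. Here the *Gdpd3*-/- values lay on both sides of *Gdpd3*+/+, with a log2 fold change of -0.11 (SE 0.16, adjusted p = 0.670). The cysteine protease *Ctsb* stood at 101, 104 and 104 FPKM in *Gdpd3*+/+ and 92.4, 78.2 and 79.0 FPKM in *Gdpd3*-/-. All *Gdpd3*-/- libraries were lower, with a log2 fold change of -0.31 (SE 0.10, adjusted p = 0.134).

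*Ctsf*, a cysteine protease, showed the largest positive difference among the well expressed cathepsins, at 20.2, 18.7 and 17.2 FPKM in *Gdpd3*+/+ and 35.6, 24.5 and 26.2 FPKM in *Gdpd3*-/-. The groups did not overlap, and the log2 fold change was 0.60 (SE 0.17, adjusted p = 0.105). *Ctsc*, the dipeptidyl peptidase that activates granule serine proteases, stood at 26.6, 23.5 and 23.1 FPKM against 40.6, 27.5 and 29.9 FPKM, also without overlap (log2 fold change 0.40, adjusted p = 0.217). *Ctsa*, the carboxypeptidase that protects neuraminidase and β-galactosidase, was at 33.7, 34.0 and 34.0 FPKM against 39.2, 35.0 and 37.6 FPKM. Its log2 fold change of 0.13 (adjusted p = 0.422) turned to -0.08 under TMM scaling. *Ctse*, an aspartic protease of endosomes, had the largest negative difference, at 62.6, 55.2 and 56.7 FPKM against 33.6, 42.9 and 64.1 FPKM. *Gdpd3*-/- replicate 7 lay above all *Gdpd3*+/+ libraries while the other two lay below, and the log2 fold change was -0.36 (SE 0.23, adjusted p = 0.392).

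The other well expressed cathepsins, *Ctss*, *Ctsl*, *Ctso*, *Ctsh* and *Ctsw*, overlapped between the genotypes, with log2 fold changes from -0.30 for *Ctsh* to 0.47 for *Ctsw*. *Ctss*, known for processing the invariant chain in antigen-presenting cells, differed by 0.00 (95% interval -0.32 to 0.32), and by -0.21 under TMM scaling. *Ctsk*, the collagenase of osteoclasts, was read only in 4 of the 6 libraries, with 100 reads in *Gdpd3*+/+ replicate 3 and 0.5, 81 and 28 reads in *Gdpd3*-/- replicates 5, 6 and 7. The placental cathepsins *Ctsr*, *Ctsj*, *Ctsm* and *Ctsq* were at or near 0. *Ctsr* had 12 and 116 reads in *Gdpd3*-/- replicates 5 and 6 and 0 elsewhere, and *Ctsr* and *Ctsj* passed the filter only through *Gdpd3*-/-.

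Within the cathepsin total, *Ctsb* made up 13.6, 14.4 and 13.9% in *Gdpd3*+/+ and 11.6, 10.6 and 10.2% in *Gdpd3*-/-, while *Ctsd* made up 26.5, 26.4 and 25.7% against 29.3, 29.6 and 28.3%. The ratio of *Ctsd* to *Ctsb*, which scaling a library by 1 factor does not change, was 1.94, 1.84 and 1.85 in *Gdpd3*+/+ and 2.53, 2.79 and 2.78 in *Gdpd3*-/-, without overlap. This separation follows from *Ctsd* lying above and *Ctsb* below in every *Gdpd3*-/- library, so it adds no test of its own. The ratio of *Ctsl* to *Ctsb* was 0.308, 0.230 and 0.273 against 0.481, 0.386 and 0.502, again without overlap. These pairs were chosen after the values were seen. The summed cathepsin level was 736 ± 12.9 FPKM (SD, n = 3) in *Gdpd3*+/+ and 770 ± 29.5 FPKM (SD, n = 3) in *Gdpd3*-/-, a ratio of 1.05, and the groups overlapped. The direction turned under TMM scaling, at a ratio of 0.902, and under quantile normalization, at 0.930, with all *Gdpd3*-/- libraries below in both.

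V-ATPase V0 sector. All 9 genes were tested and 7 had a mean of at least 1 FPKM. The proteolipid gene *Atp6v0c*, which encodes the c subunit of the rotating ring, was the highest, at 59.2, 64.6 and 61.7 FPKM in *Gdpd3*+/+ and 58.0, 50.7 and 55.9 FPKM in *Gdpd3*-/-. The groups were separated by a narrow gap, with a log2 fold change of -0.17 (SE 0.09, adjusted p = 0.328). The ring gene *Atp6v0b* was at 49.1, 52.7 and 49.9 FPKM against 65.7, 65.8 and 52.0 FPKM (log2 fold change 0.27, adjusted p = 0.251). It overlapped through *Gdpd3*-/- replicate 7 and was called higher without that library (adjusted p = 0.0368). *Atp6v0e*, a small membrane subunit, was at 47.6, 53.7 and 56.8 FPKM against 51.8, 62.3 and 55.5 FPKM, and its log2 fold change of 0.10 (adjusted p = 0.601) was -0.11 under TMM scaling and -0.03 under quantile normalization.

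Its paralog *Atp6v0e2* stood out by its spread, at 0.461, 0.696 and 0.338 FPKM in *Gdpd3*+/+ and 5.71, 2.38 and 0.413 FPKM in *Gdpd3*-/-. Replicates 5 and 6 were higher than all *Gdpd3*+/+ libraries and replicate 7 lay among them, so the log2 fold change of 1.75 (SE 0.87, adjusted p = 0.289) became -0.18 with replicate 7 alone. The skeletal muscle sum was likewise higher in replicates 5 and 6 (9585 and 13844 FPKM) than in 7 (1812 FPKM). Replicate 6 was the highest in that sum, while replicate 5 was the highest in *Atp6v0e2*. The part of muscle RNA in *Atp6v0e2* was not tested. In read counts this gene had 42, 80 and 38 reads against 223, 159 and 19. It made up 9.92% of the e subunit mRNA in *Gdpd3*-/- replicate 5, 3.68% in replicate 6, 0.738% in replicate 7 and 0.593 to 1.28% in *Gdpd3*+/+.

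The a subunit, which steers the pump to different membranes, is encoded by 4 genes. *Tcirg1* (a3) made up 46.3% of their summed FPKM in *Gdpd3*+/+ and 44.0% in *Gdpd3*-/-, *Atp6v0a2* 36.2% and 42.4%, and *Atp6v0a1* 17.5% and 12.3%. None of these 3 shares separated the genotypes. *Atp6v0a1* had the largest negative difference of the V0 genes, at 7.57, 5.74 and 7.67 FPKM against 6.01, 3.30 and 4.47 FPKM (log2 fold change -0.63, SE 0.26, adjusted p = 0.220), and *Gdpd3*-/- replicate 5 overlapped *Gdpd3*+/+ replicate 2. *Tcirg1* was at 17.8, 19.1 and 18.8 FPKM against 15.8, 18.7 and 14.3 FPKM (log2 fold change -0.20, adjusted p = 0.412). *Atp6v0a4*, the form of kidney intercalated cells, was the eighth gene above and passed the filter only through *Gdpd3*-/-, with 2, 9 and 4.5 reads in *Gdpd3*+/+ and 25, 189 and 16.5 reads in *Gdpd3*-/-. The d subunit came almost wholly from *Atp6v0d1*, at 99.0 to 100% of the pair, with the osteoclast form *Atp6v0d2* making up the rest.

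V-ATPase V1 sector. Of 13 genes, 10 were tested and 9 had a mean of at least 1 FPKM. Subunit forms known from other tissues, *Atp6v1b1*, *Atp6v1g3* and *Atp6v1e2*, were not tested, and *Atp6v1g3* and *Atp6v1e2* were listed at 0 in every library. *Atp6v1f*, which encodes a subunit of the central stalk, was the highest, at 120, 124 and 124 FPKM in *Gdpd3*+/+ and 159, 209 and 168 FPKM in *Gdpd3*-/-. All *Gdpd3*-/- libraries lay above, with a log2 fold change of 0.53 (SE 0.12, adjusted p = 0.0815). *Atp6v1g1*, a peripheral stalk subunit, was at 85.1, 84.4 and 85.8 FPKM against 141, 122 and 103 FPKM, again without overlap (log2 fold change 0.51, SE 0.13, adjusted p = 0.0915). Its paralog *Atp6v1g2* was far lower and also did not overlap, at 2.70, 2.79 and 3.58 FPKM against 3.84, 5.10 and 4.89 FPKM (log2 fold change 0.59, SE 0.22, adjusted p = 0.180). These 3 genes kept a positive difference under TMM scaling and quantile normalization, between 0.30 and 0.39.

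The other peripheral stalk subunit, *Atp6v1e1*, was at 116, 114 and 114 FPKM in *Gdpd3*+/+ and 69.7, 122 and 99.7 FPKM in *Gdpd3*-/-. Replicates 5 and 7 lay below and replicate 6 above, with a log2 fold change of -0.28 (SE 0.20, adjusted p = 0.449). The ratio of *Atp6v1f* to *Atp6v1e1* was 1.04, 1.09 and 1.09 against 2.27, 1.71 and 1.69, and the ratio of *Atp6v1g1* to *Atp6v1e1* was 0.735, 0.740 and 0.751 against 2.02, 1 and 1.03 (exact two-sided permutation p = 0.1 for each). The pairs were chosen after the values were seen. *Atp6v1c1*, whose C subunit couples V1 to V0, was at 46.4, 43.0 and 44.3 FPKM against 54, 18.6 and 40.9 FPKM. Replicate 6 was far below the others, and without it the log2 fold change went from -0.37 (adjusted p = 0.547) to 0.08. The catalytic A subunit gene *Atp6v1a* (log2 fold change -0.29), the B subunit gene *Atp6v1b2* (-0.15), *Atp6v1h* (0.14, and -0.07 under TMM scaling) and *Atp6v1d* (0.03, and -0.18) overlapped between the genotypes.

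**Figure D3:**
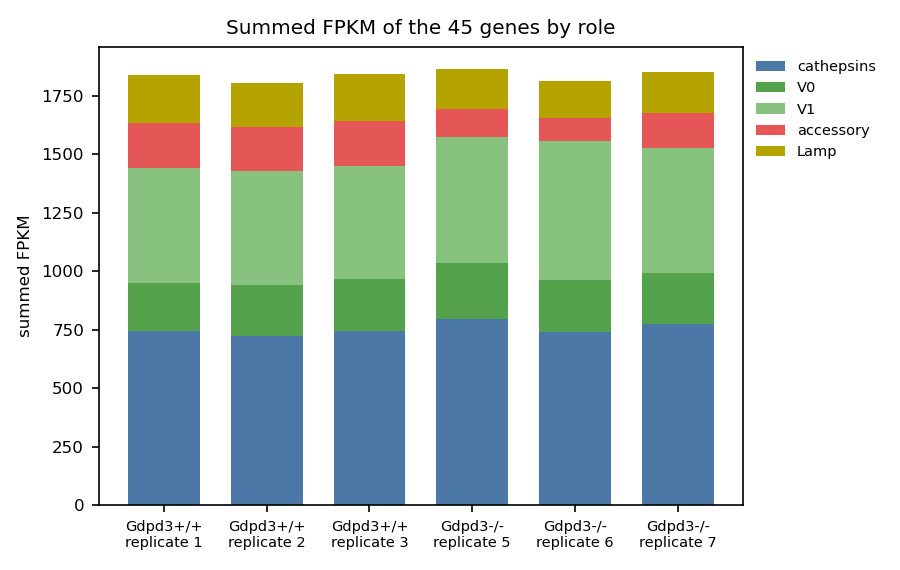
Summed FPKM of the 45 genes in each library, stacked by role (bars start at 0). The totals lie between 1806 and 1866 FPKM in all 6 libraries, while the accessory and Lamp blocks are smaller and the V1 block larger in the 3 Gdpd3-/- libraries.

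By sector, the V0 sum was 216 ± 8.49 FPKM (SD, n = 3) in *Gdpd3*+/+ and 227 ± 9.35 FPKM (SD, n = 3) in *Gdpd3*-/-, with overlap and at a ratio of 1.05. It was wholly below in *Gdpd3*-/- under TMM scaling, at a ratio of 0.907, and overlapped under quantile normalization, at 0.954. The V1 sum was 487 ± 5.04 FPKM (SD, n = 3) against 556 ± 31.2 FPKM (SD, n = 3), without overlap and at a ratio of 1.14. This ratio was 0.985 under TMM scaling and 1.01 under quantile normalization, where the groups overlapped.

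Accessory and LAMP genes. The summed levels of both groups were lower in every *Gdpd3*-/- library than in any *Gdpd3*+/+ library, at 190 ± 3.44 against 123 ± 27.3 FPKM (SD, n = 3) for the accessory genes and 199 ± 7.96 against 168 ± 7.30 FPKM (SD, n = 3) for the *Lamp* genes. *Atp6ap2*, the (pro)renin receptor, which is needed for V-ATPase assembly, lies on chrX:12164927-12194175 (mm9, plus strand). It stood at 121, 120 and 126 FPKM in *Gdpd3*+/+ and 66.0, 41.9 and 80.8 FPKM in *Gdpd3*-/-, which is 1.94-fold lower by group means. The groups were widely separated, with a log2 fold change of -1.01 (SE 0.23, 95% interval -1.56 to -0.46), the largest negative difference among the 32 genes, but the adjusted p was 0.0806 in limma. Over all alternatives the adjusted p ran from 0.0182 to 0.3 and passed 0.05 in 4 of 16. *Atp6ap1*, the other accessory subunit and also X-linked, was at 71.7, 66.3 and 66.6 FPKM against 50.7, 56.4 and 70.9 FPKM, overlapping through replicate 7 (log2 fold change -0.21, adjusted p = 0.400). The ratio of *Atp6ap2* to *Atp6ap1* was 1.69, 1.81 and 1.89 against 1.30, 0.743 and 1.14, without overlap. *Atp6ap1l* was read in 1 *Gdpd3*+/+ library, with 6 reads, and in 2 *Gdpd3*-/- libraries, with 16 each.

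*Lamp1*, the main glycoprotein of the lysosomal membrane, was at 168, 155 and 165 FPKM in *Gdpd3*+/+ and 148, 136 and 143 FPKM in *Gdpd3*-/- (log2 fold change -0.19, SE 0.09, adjusted p = 0.245). *Lamp2*, which also serves chaperone-mediated autophagy, was at 36.2, 34.6 and 37.7 FPKM against 24.6, 24 and 29.2 FPKM. Neither gene overlapped between the genotypes, and *Lamp2* had a log2 fold change of -0.48 (SE 0.11, adjusted p = 0.0838, running from 0.0194 to 0.319 over the alternatives and passing 0.05 in 3 of 16). The ratio of *Lamp2* to *Lamp1* was 0.216, 0.222 and 0.228 against 0.166, 0.176 and 0.204. *Lamp3*, the dendritic cell form, was near 0, with 4 to 13.2 reads in each library. The accessory sum was 0.644 times and the *Lamp* sum 0.846 times that of *Gdpd3*+/+, and both ratios were lower still under TMM scaling, at 0.555 and 0.730.

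*Lamp2*, *Atp6ap1* and *Atp6ap2* are X-linked, and the libraries differed in their sex-linked genes. *Xist* was at 9, 2.47 and 5.55 FPKM in *Gdpd3*+/+ and 0.113, 24.5 and 9.23 FPKM in *Gdpd3*-/-, and *Ddx3y*, on the Y chromosome, at 12.7, 16.7 and 16.2 FPKM against 10.6, 1.72 and 9.83 FPKM. *Gdpd3*-/- replicate 5 had the lowest *Xist* and replicate 6 the highest. In these 2 libraries *Lamp2* stood at 24.6 and 24 FPKM, *Atp6ap1* at 50.7 and 56.4 FPKM and *Atp6ap2* at 66.0 and 41.9 FPKM. Of all X-linked genes with a mean of at least 1 FPKM, 10.5% lay below in *Gdpd3*-/-, against 10.2% of genes on other chromosomes. The part of sex in the levels of the 3 genes was not tested.

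**Figure D4:**
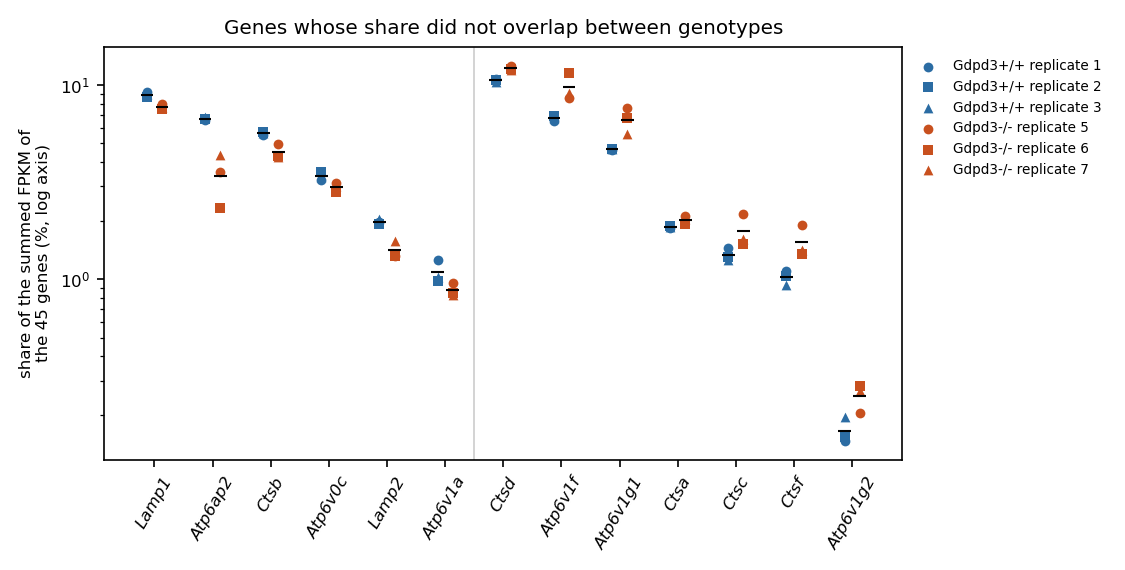
Share of the summed FPKM of the 45 genes (percent, log axis) for the genes with a mean of at least 1 FPKM whose share did not overlap between the genotypes; points are libraries, black bars are group means, and the grey line parts lower from higher shares. Atp6ap2 held 6.68% of the total in Gdpd3+/+ and 3.40% in Gdpd3-/-, and Atp6v1f 6.72% and 9.70%.

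Shares of the total of the 45 genes do not change when a library is scaled by 1 factor, as in TMM scaling, but can under quantile normalization. By share, 7 of the 32 genes were above and 6 below in *Gdpd3*-/-. They were the same 12 genes as in FPKM, with *Atp6v1a* added among those below, at 1.25, 0.972 and 1.03% in *Gdpd3*+/+ and 0.950, 0.844 and 0.829% in *Gdpd3*-/-. In FPKM, 28.2% of all genes with a mean of at least 1 FPKM lay above and 10.2% below. Shares were not computed for all genes. *Atp6ap2* held 6.57, 6.65 and 6.82% against 3.54, 2.31 and 4.37%. *Ctsd* held 10.5 ± 0.18% (SD, n = 3) of the total in *Gdpd3*+/+ and 12.1 ± 0.34% (SD, n = 3) in *Gdpd3*-/-.

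**Figure D5:**
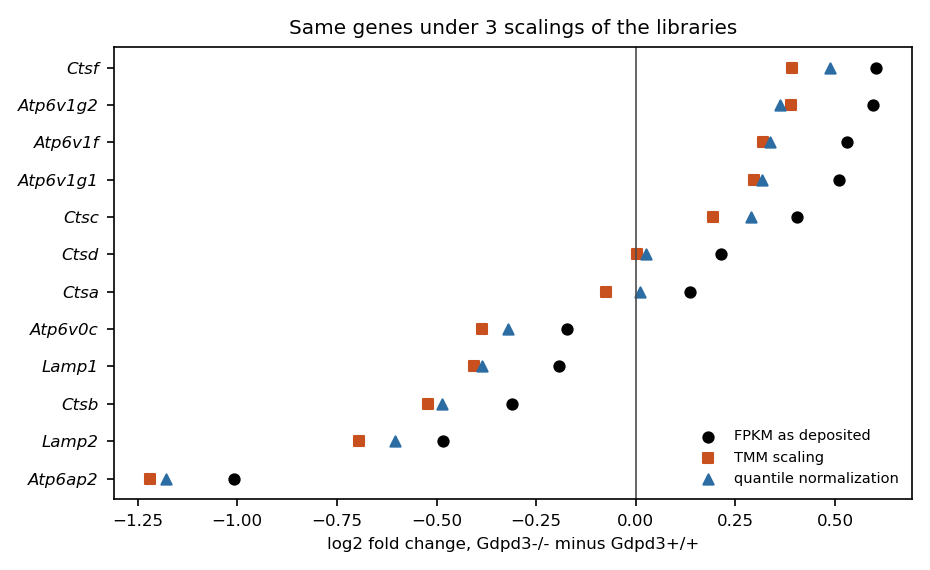
Log2 fold change of the 12 genes whose FPKM did not overlap between the genotypes, with the deposited FPKM (circles), TMM scaling (squares) and quantile normalization (triangles). The order of the genes is nearly kept while both scalings move them down, and Ctsa is below 0 under TMM scaling.

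Genes that act with these were counted from lists by role. For comparison with each list, 1.09% of all genes tested were called higher and 0.616% lower, and 22.2% had an unadjusted p under 0.05. Of 39 soluble hydrolases and activators, 1 was called higher and 0 lower (13 with an unadjusted p under 0.05). That gene, *Gm2a*, the GM2 ganglioside activator, was at 43.5, 42.2 and 44.6 FPKM in *Gdpd3*+/+ and 60.8, 69.3 and 62.7 FPKM in *Gdpd3*-/- (log2 fold change 0.56, SE 0.09, adjusted p = 0.0466). *Psap*, the precursor of the saposins and the highest of this list, was at 124, 132 and 128 FPKM against 190, 143 and 169 FPKM (adjusted p = 0.136). Of 15 membrane and transport genes and 5 sorting genes, 0 were called in either direction by limma (7 and 1 with an unadjusted p under 0.05). *Cd63*, a tetraspanin and the highest of the membrane genes, was at 450, 474 and 483 FPKM against 444, 447 and 409 FPKM. The mannose 6-phosphate receptor *M6pr*, the highest of the sorting genes, was at 93.1, 92.2 and 87.4 FPKM against 69.6, 87.5 and 72.0 FPKM and overlapped.

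Of the 13 endogenous cathepsin inhibitors tested, 1 was called higher and 2 lower, where 1.09% and 0.616% of all genes tested were. *Ctla2a*, an inhibitor related to the cathepsin propeptide, rose from 364, 383 and 399 FPKM in *Gdpd3*+/+ to 861, 622 and 734 FPKM in *Gdpd3*-/- (log2 fold change 0.94, SE 0.14, adjusted p = 0.0362). The cystatin *Cst7*, which acts on cathepsin C, fell from 124, 129 and 140 FPKM to 57.5, 69.6 and 67.7 FPKM (log2 fold change -1.02, SE 0.11, adjusted p = 0.02). *Serpinb1a*, an inhibitor of neutrophil serine proteases, fell from 248, 267 and 273 FPKM to 159, 160 and 165 FPKM (log2 fold change -0.70, SE 0.09, adjusted p = 0.0262). Of the 7 neutrophil markers, 5 lay below in the same libraries and *Retnlg* and *Mmp8* overlapped. The part of neutrophil RNA in these values was not tested.

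Of the 20 genes of mTORC1 on the lysosome and the TFEB family, 0 were called by limma (6 with an unadjusted p under 0.05). *Lamtor5*, a Ragulator subunit and the highest of them, was at 108, 106 and 120 FPKM against 141, 161 and 152 FPKM (log2 fold change 0.44, adjusted p = 0.0780). *Tfeb*, a transcription factor known for driving lysosomal genes, was at 2.27, 2.04 and 1.95 FPKM against 1.27, 3.72 and 1.93 FPKM. Of 10 V-ATPase assembly genes, *Rogdi*, a partner of the RAVE-like complex, was called lower, from 20.9, 21.6 and 21.4 FPKM to 10.9, 11.1 and 14.2 FPKM (log2 fold change -0.83, SE 0.14, adjusted p = 0.0466), and 0 were called higher. *Ccdc115*, the highest of these, was at 38.6 to 46.6 FPKM in *Gdpd3*+/+ and 37.9 to 48.0 FPKM in *Gdpd3*-/-.

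Cathepsins are also abundant in macrophages and osteoclasts. The 9 macrophage markers summed to 47.2 to 56.2 FPKM in *Gdpd3*+/+ and 32.7 to 44.7 FPKM in *Gdpd3*-/-, the 7 osteoclast markers to 35.6 to 44.3 FPKM and 25.9 to 36.8 FPKM, and *Oscar* was listed at 0 in every library. *Vcam1*, in the macrophage list, was called lower (adjusted p = 0.0487).

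TFEB and TFE3 are known to bind the letters TCACGTGA in promoters of lysosomal genes. RefSeq promoters (GRCm38.p6, 250 bases before to 50 after the start) matched 34 of the 45 genes, and the letters, which read the same on both strands, were in 5 of them (14.7%), against 1.12% of 27025 genes with a promoter. The core CACGTG, which every TCACGTGA also holds, was in 9 (26.5%) against 8.09%. The 5 promoters are shown because they hold the full letters, with these in capitals and 24 bases on each side, and *Ctsa* holds them at 2 places.
Atp6v1a, chr16:44139360-44139415, minus strand: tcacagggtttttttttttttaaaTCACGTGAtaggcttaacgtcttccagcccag
Atp6v0e, chr17:26676374-26676429, plus strand: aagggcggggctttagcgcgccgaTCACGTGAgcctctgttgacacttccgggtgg
Ctsa, chr2:164833736-164833791, plus strand: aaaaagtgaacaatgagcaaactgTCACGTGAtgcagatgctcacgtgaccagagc
Ctsa, chr2:164833753-164833808, plus strand: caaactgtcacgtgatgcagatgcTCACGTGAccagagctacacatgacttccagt
Ctsd, chr7:142387895-142387950, minus strand: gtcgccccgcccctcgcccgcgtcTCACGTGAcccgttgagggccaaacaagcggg
Atp6v0d1, chr8:105566037-105566092, minus strand: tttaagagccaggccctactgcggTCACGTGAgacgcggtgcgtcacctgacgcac
The first base of the letters lies 132 bases before the start in *Atp6v1a* and 99 before it in *Ctsd*. The 5 genes had log2 fold changes of -0.29 (*Atp6v1a*), 0.10 (*Atp6v0e*), 0.13 (*Ctsa*), 0.21 (*Ctsd*) and 0.09 (*Atp6v0d1*), of which *Atp6v0e*, *Ctsa* and *Atp6v0d1* turned negative under TMM scaling, and *Ctsa* and *Ctsd* were the ones whose genotypes did not overlap.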

How the data were processed

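RNA was amplified with SMART-Seq v4 and Nextera XT and sequenced as paired-end reads of 150 bases. The submitters' processing notes name Trimmomatic, Trim Galore, cutadapt 1.16, STAR 2.6.1a, featureCounts 1.6.1, DESeq2 and mm9. The authors deposited FPKM values per gene, and a separate DESeq2 table of their own fold changes and p-values, which was not used. In each library, FPKM times gene length was a whole multiple (within 0.02) of 1 step for 100% of values checked, and 47.2 to 55.2% of values above 0 were multiples of 100 steps. A step was therefore taken as 0.01 of a read, with reads shared between features. This is read from the values, and the counting settings are not given in the sources used here.

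Genes averaging at least 0.05 FPKM (24689) entered limma 3.58.1 (R 4.3.3) as log2(FPKM + 0.1), with a trend on intensity, genotype being the only term, and Benjamini-Hochberg adjustment over all of them. Fold changes on this scale understate low genes. Single values and sums were compared by exact two-sided permutation tests in SciPy 1.17.1 (20 assignments). The fit was tested on simulated data. Named in full were *Gdpd3*, members with an adjusted p under 0.05 or, at a mean of at least 1 FPKM, no overlap, the highest members and the largest differences in each role, and in each list of lysosomal genes the called genes and the highest. Others, such as *Tfeb* and the ratio pairs, were added after their values were seen. The members and lists were chosen with earlier results of these data known. The fit was repeated with a pseudocount of 0.01 or of 1, without the filter, from a mean of 1 FPKM up, with TMM scaling (trimming 30% of M and 5% of A), after quantile normalization, without the trend, with array weights, leaving out each library, and with, added later, replicate 7 as the only *Gdpd3*-/- library and limma-voom on the recovered reads. With 3 reads as the floor, the deepest library could show a share of 0.0478 and the shallowest 0.141, in reads per 1000000. This covers counting error only.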

Additional observations from a re-analysis of the deposited data

How the results depend on the processing

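With the deposited FPKM no member was called by limma, and 0 were called with pseudocounts of 0.01 and 1, no filter, a mean of at least 1 FPKM, quantile normalization, no trend or array weights. Leaving out each library gave 0 to 5 called higher and 0 to 3 called lower: without *Gdpd3*-/- replicate 7, 5 higher (*Ctsr*, *Atp6v0b*, *Atp6v0e2*, *Atp6v1f*, *Atp6v1g1*) and 3 lower (*Ctse*, *Atp6ap2*, *Lamp2*), where 9.83% and 4.36% of all genes were called, and without *Gdpd3*-/- replicate 6, 1 lower (*Atp6ap2*). TMM scaling called 1 lower (*Lamp2*), limma-voom 2 lower (*Atp6ap2*, *Lamp2*), and *Gdpd3*-/- replicate 7 alone 2 higher and 2 lower. That last fit assumes the lone library to vary like the others. The median log2 fold change of the members went from 0.10 to -0.10 under TMM scaling and -0.03 under quantile normalization, as that of all genes went from 0.24 to 0.05 and -0.01. Members wholly above numbered 4 and wholly below 14 under TMM scaling (14.5% and 15.5% of all genes), and 4 and 13 under quantile normalization (13.6% and 15.5%). Log2 fold changes of named genes that turned sign were *Ctse* at 0.14 and *Atp6v0e2* at -0.18 with replicate 7 alone, *Ctsa* at -0.08 and *Atp6v0e* at -0.11 under TMM scaling, *Atp6v0e* at -0.03 under quantile normalization, *Ctsz*, which ran from -0.24 to 0.05 over the fits without 1 library (0.05 without *Gdpd3*-/- replicate 5), and *Atp6v1c1*, from -0.69 to 0.08 (0.08 without *Gdpd3*-/- replicate 6). Of the other members, *Ctss* (-0.21), *Atp6v0d1* (-0.12), *Atp6v0a2* (-0.11), *Atp6v1h* (-0.07) and *Atp6v1d* (-0.18) turned negative under TMM scaling and *Atp6v1c2* (-0.18) under quantile normalization. Of 352 values over the 22 named genes, 328 kept their direction and side of the threshold and 17 newly passed it. The cause was not tested. Genes called over the whole table numbered 422 in the fit reported, 0 when *Gdpd3*+/+ replicate 1 was left out, 3413 when *Gdpd3*-/- replicate 7 was, and 906 by limma-voom. With *Gdpd3*-/- replicate 7 alone the number was 2294, with no filter 283, with a pseudocount of 1 225, with a mean of at least 1 FPKM 673, with no trend 153, with array weights 240, without *Gdpd3*+/+ replicates 2 and 3 1 and 21, and without *Gdpd3*-/- replicate 5 187. No paired analysis was made, because the sources used here link no *Gdpd3*-/- library to a *Gdpd3*+/+ library.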
